A study of Mus musculus with 15 samples.

Results

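The genes described here make, sense and move sterols and fatty acids. They are 36 listed genes, and a gene was taken as every transcription unit whose symbol, or 1 of its symbols, was that gene. A unit with such a symbol was found for 35 of the 36, and for Mvd none was found. The 35 genes had 63 units of the 65522 in the series: 10 genes had 1 unit, 22 had 2 and 3 had 3, and the unit with the highest mean over the 15 libraries stands for its gene below. Every further unit lay at the same place as another unit, so reads may have been divided between them. The units of Fdps, Srebf1, Scd2, Acsl3 and Tm7sf2 also carry the symbols of other genes (Rusc1 and Gm43738, Mir6922, Mir5114, Utp14b, and Vps51, Zfpl1 and Gm28374), so their values cannot be assigned to 1 gene alone.

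Poly(A) RNA of female C57BL/6 mouse embryonic fibroblasts was sequenced in 15 libraries, S01 to S15, to ask how gene expression depends on CIZ1, a protein of the nuclear matrix that collects at the inactive X chromosome, and on growth in culture. Primary cells, each population from an individual embryo and collected before passage 5, were WT (S01, S02 and S03), CIZ1 -/- (S04 and S05), CIZ1 -/- with an inducible CIZ1 transgene and untreated (S06 and S13), or the same genotype given doxycycline at 5 to 10 µg/ml, which switches on a GFP-tagged CIZ1 (S14 and S15). Culture-adapted lines, grown on from primary populations until rapid proliferation returned, were WT (S07, S08 and S09) or labelled CIZ1 -/- (S10, S11 and S12). The null allele is a gene trap downstream of the first exon, carried in both copies also by the transgenic cells, and each adapted line is a single line per embryo. S07, S08 and S09 came from the embryos of S02, S03 and S01, and S10, S11 and S12 from those of S05, S06 and S04, so S11 derives from the transgenic embryo and is listed by the study with the transgene although its label names only the null genotype. S04, S05 and S06 together were taken as the primary CIZ1 null populations, and the passage was not the same in all primary populations. By the study's account the cells given doxycycline came from the same embryos as the untreated transgenic ones. Values are FPKM, which divide the fragments of a unit by its length and by the size of the library, and the number of reads behind each is unknown. From the steps between low values, relative depth (S01 set to 1) was estimated at 1 to 1.625 in S01 to S06, 0.54 to 1.18 in the adapted lines and 0.48 in S13.

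The labels were checked first on Ciz1 (chromosome 2, 32308345 to 32381938 in GRCm38). Its FPKM was 18.7 to 25.0 in the 6 WT libraries, 0.0546 to 0.724 in the 7 untreated null libraries, and 296 and 191 in S14 and S15. All 8 fibroblast markers had a unit, and none was at 0 throughout a group; their summed FPKM was 9357 to 10910 in untreated primary libraries, 6205 to 7917 in those given doxycycline and 2198 to 6453 in adapted ones, and Thy1 was at 0 in S08 and 0.215 in S11. Of 6 adipocyte markers, Lep was at 0 in all libraries and Adipoq, Plin1 and Cidec reached at most 1.32 FPKM. The marker lists of epithelial, endothelial, white blood, muscle and liver cells each summed to at most 12.2 FPKM in any library.

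Cholesterol is built from acetyl-CoA through mevalonate, isoprenoid units, squalene and lanosterol. When membranes of the endoplasmic reticulum are low in sterol, the escort protein SCAP carries the SREBP proteins (encoded by Srebf1 and Srebf2) to the Golgi, where they are cut and release transcription factors that switch on this pathway, fatty acid synthesis and sterol uptake together. INSIG proteins hold SCAP back when sterol is plentiful, and oxysterols then act through LXR receptors on the efflux transporters ABCA1 and ABCG1. Cultured fibroblasts can take up cholesterol from serum lipoproteins or make it, and dividing cells need it for membranes.

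Sequence upstream of the gene starts was compared first, since SREBP proteins bind the sterol regulatory element, often beside a CCAAT box bound by NF-Y. RefSeq promoters (GRCm38.p6) were matched for 28 of the 36 genes, with 34 starts. Abcg1, Fads1, Fdft1, Fdps, Scd1, Scd2, Sqle and Stard4 were not matched. The 250 bases before each start were searched on both strands for the element TCACNCCA, for CCAAT and for the E-box CACGTG, which reads the same on both strands; the last letters of the first motif can also begin the second, but no such overlap occurs below. TCACNCCA was found in 3 of the 28 genes (10.7%), which are Hmgcs1, Srebf2 and Msmo1, against 4.2% of all 27025 genes in the table. CCAAT was found in 21 of 28 (75%) against 37.5%, and in 14 of the 15 matched genes of the sterol pathway (93.3%), Acat2 being the other. CACGTG was found in 7 of 28 (25%) against 6.86%. The windows of the 3 genes that hold the sterol element are shown with those of Idi1, whose level ranged most between libraries, and Abca1, an efflux gene that was higher in all adapted null lines than in the primary null populations. Each is the 250 bases before the start, read 5′ to 3′ on the strand of the gene, and capitals mark the letters of the 3 motifs on either strand. They lie at chr13:119690101-119690350 (plus strand) for Hmgcs1, chr15:82147019-82147268 (plus) for Srebf2, chr8:64733579-64733828 (minus) for Msmo1, chr13:8885356-8885605 (plus) for Idi1 and chr4:53159896-53160145 (minus) for Abca1.
Hmgcs1: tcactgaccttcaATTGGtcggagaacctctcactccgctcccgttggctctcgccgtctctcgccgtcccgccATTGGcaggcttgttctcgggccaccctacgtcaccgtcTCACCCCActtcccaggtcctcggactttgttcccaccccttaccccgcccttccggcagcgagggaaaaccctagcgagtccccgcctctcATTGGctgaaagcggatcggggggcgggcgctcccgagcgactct
Srebf2: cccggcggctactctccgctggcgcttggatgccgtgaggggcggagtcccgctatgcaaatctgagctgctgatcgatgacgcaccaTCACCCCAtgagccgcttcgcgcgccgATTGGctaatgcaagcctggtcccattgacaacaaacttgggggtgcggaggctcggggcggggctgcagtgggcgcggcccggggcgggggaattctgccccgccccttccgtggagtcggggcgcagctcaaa
Msmo1: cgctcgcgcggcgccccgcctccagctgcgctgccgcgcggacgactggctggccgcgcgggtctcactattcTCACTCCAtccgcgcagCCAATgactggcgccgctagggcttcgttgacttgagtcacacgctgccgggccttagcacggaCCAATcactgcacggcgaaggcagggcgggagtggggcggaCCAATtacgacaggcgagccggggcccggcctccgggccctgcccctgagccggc
Idi1: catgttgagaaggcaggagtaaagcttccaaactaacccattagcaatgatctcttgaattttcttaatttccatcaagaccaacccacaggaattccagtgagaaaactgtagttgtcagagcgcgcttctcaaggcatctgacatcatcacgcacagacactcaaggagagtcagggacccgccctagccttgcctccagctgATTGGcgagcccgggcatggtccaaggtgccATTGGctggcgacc
Abca1: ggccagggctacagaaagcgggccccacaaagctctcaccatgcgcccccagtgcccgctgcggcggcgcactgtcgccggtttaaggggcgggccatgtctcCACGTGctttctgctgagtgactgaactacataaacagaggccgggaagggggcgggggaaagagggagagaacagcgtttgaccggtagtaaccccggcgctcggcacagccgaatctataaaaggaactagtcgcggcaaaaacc
In Hmgcs1 the sterol element lies 137 to 130 bases before the start, with CCAAT letters on the other strand 237 to 233, 176 to 172 and 45 to 41 bases before it. In Srebf2 it lies 162 to 155 bases before the start and the CCAAT letters 135 to 131. In Msmo1 it lies 177 to 170 bases before the start, and the nearest of its 3 CCAAT boxes 160 to 156. Idi1 has CCAAT letters 45 to 41 and 14 to 10 bases before the start and no TCACNCCA in this window, and Abca1 has only CACGTG, 147 to 142 bases before it. These positions depend on the RefSeq starts. Bases just after the start were found in a reference transcript for the other genes shown, but not for Hmgcs1. The units of Srebf2, Msmo1, Idi1 and Abca1 begin inside their windows. A match of letters is a description and not a measured binding site.

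The genes were expressed in every group, and libraries of the same group could differ widely. The median of log2(FPKM + 1) over the 35 genes was 4.93 to 5.42 in S01 to S06, 4.51 to 4.82 in the adapted WT lines, and 4.495, 3.56 and 5.54 in the adapted null lines S10, S11 and S12. The transgenic libraries S13, S14 and S15 had medians of 5.75, 5.04 and 5.86. S11 held the lowest of the 15 values for 20 of 35 genes, against 12% of the 20031 units with a mean of at least 1 FPKM, and S15 the highest for 13, against 2.74%. In a bulk sample, fewer cells with a gene switched on and less RNA in each cell cannot be told apart.

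**Figure D1:**
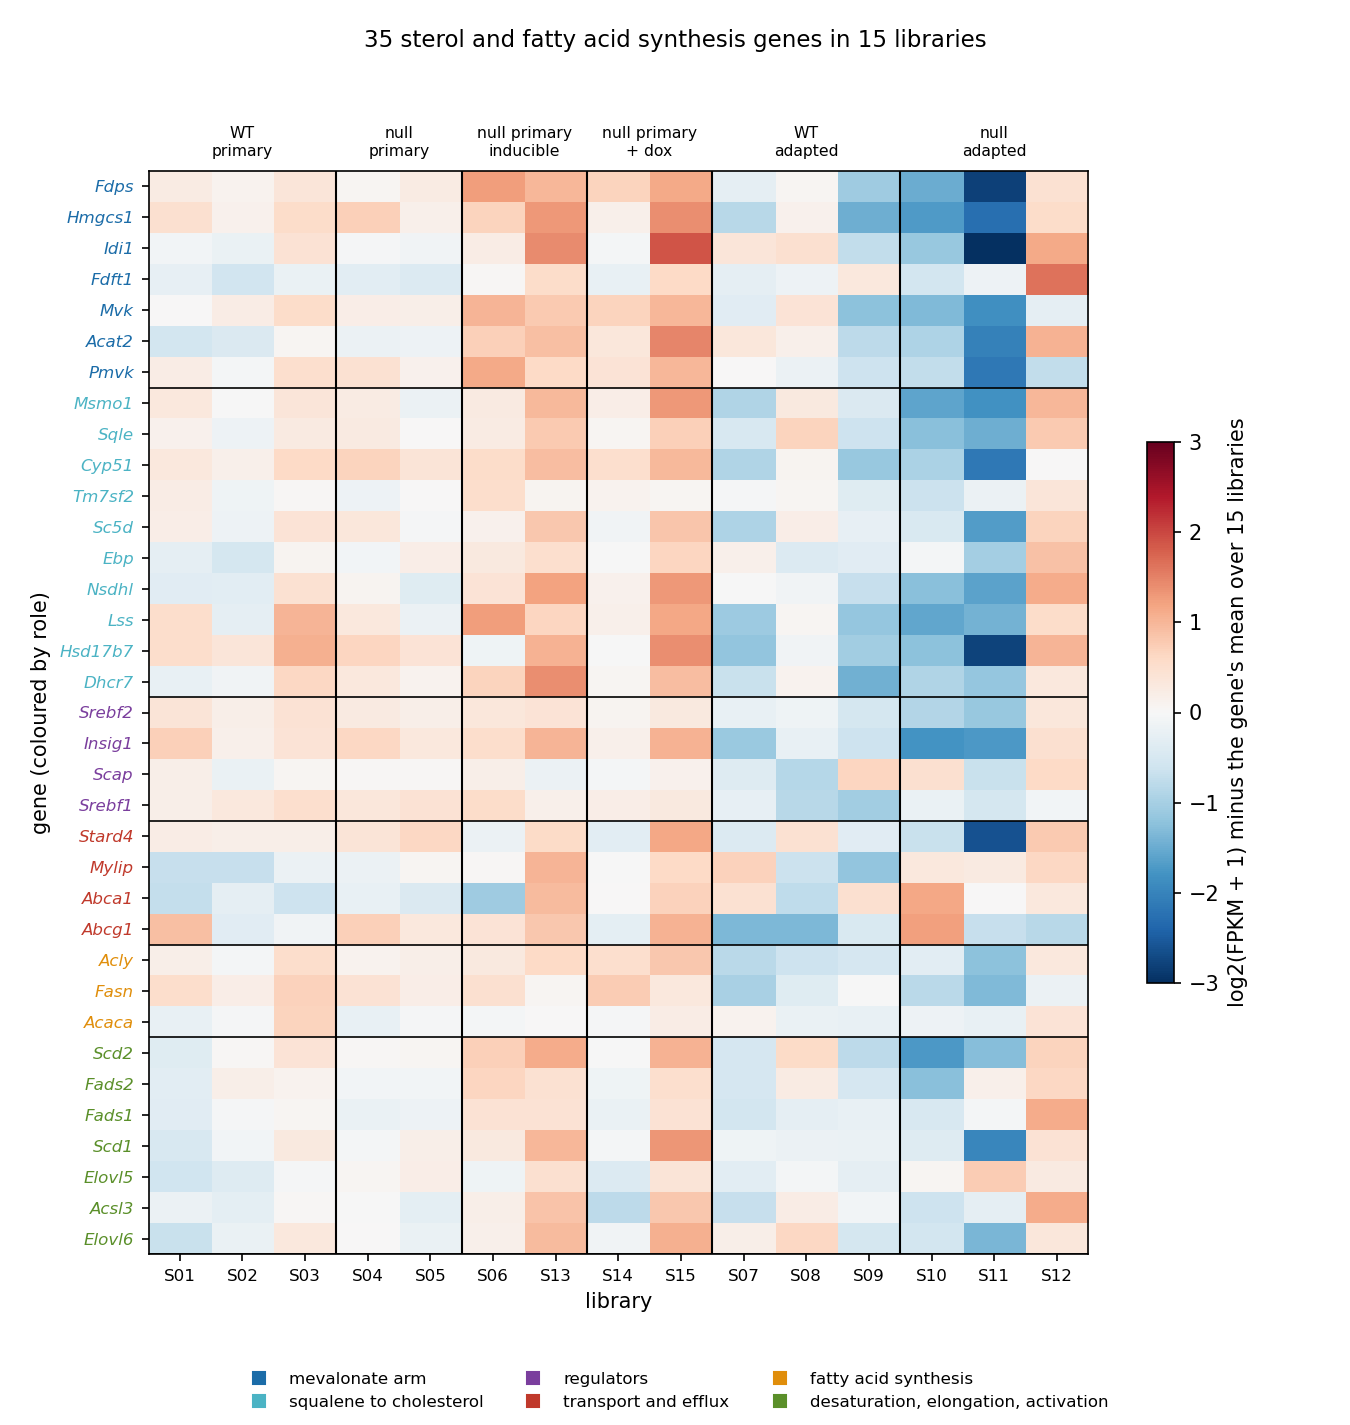
Level of 35 genes (rows, coloured by role) in 15 libraries (columns, by group), as log2(FPKM + 1) minus the mean of the gene over the 15 libraries, on a scale from -3 to 3. The column of S11 holds the deepest blue, with Idi1 at 2.66 FPKM, while S12, S13 and S15 are red over most rows.

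The mevalonate arm, from acetyl-CoA to squalene, had 7 genes with values. Fdps, which makes farnesyl pyrophosphate, had the highest mean, 169 FPKM, and Pmvk, a kinase of mevalonate, the lowest, 20.5. Fdps was at 165, 151 and 181 FPKM in S01 to S03, 146, 166 and 335 in S04 to S06, 115, 146 and 66.6 in S07 to S09, 48.8, 19.3 and 193 in S10 to S12, 277 in S13, 223 in S14 and 307 in S15. The untreated primary transgenic libraries S06 and S13 were above every library without the transgene. S11, which the study also lists with the transgene, was the lowest of all, 17.3-fold below the highest library. Hmgcs1, which makes the precursor of mevalonate, was at 89.6, 70.3 and 94.5 FPKM in the primary WT populations and 106, 71.1 and 102 in the primary null ones. In the adapted lines it was at 35.2, 70.2 and 22.4 (WT) and 19.1, 12.6 and 94 (null). S08 lay just under the lowest primary WT value and S12 within the primary range, while the other 4 lines were far below both. Idi1, which isomerises isopentenyl pyrophosphate, was at 39.6, 36.4 and 57.7 FPKM in primary WT cells, 41, 39 and 49.6 in primary null cells, 54.6, 59.4 and 24.9 in adapted WT lines and 18.8, 2.66 and 94.2 in adapted null lines. Its 59.3-fold range over the 15 libraries was the widest of the genes with no value at 0. Pmvk was at 18.2, 15.9 and 11.4 FPKM in adapted WT lines and 10.3, 3.26 and 10.4 in adapted null lines, and these did not overlap. Fdft1, squalene synthase, was lowest in S02 (29.5 FPKM), at 39.8 in S11, and highest in S12 (139). Mvk and Acat2 ranged from 8.21 to 65.5 and from 5.33 to 70 FPKM, each lowest in S11.

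The next group holds the 10 genes from squalene to cholesterol. Msmo1, a sterol methyl oxidase, had the highest mean (82.3 FPKM) and Dhcr7, which carries out a last reduction to cholesterol, the lowest (12.2). Msmo1 was at 88.5, 69.9 and 90.4 FPKM in S01 to S03, 83.2, 62.7 and 85.5 in S04 to S06, 37, 86.1 and 51.8 in S07 to S09, and 22.8, 19.2 and 141 in S10 to S12. In S13, S14 and S15 it was at 140, 81.8 and 175, so that S12, S13 and S15 stood above the other 12 libraries. Hsd17b7, a sterol ketone reductase, was at 21.5, 19 and 32 FPKM in primary WT populations and 5.9, 13.6 and 6.64 in the adapted WT lines, which did not overlap. It was at 23.3, 19.7 and 13.4 in primary null populations and 5.65, 1.29 and 30.6 in the adapted null lines. Sqle, the squalene epoxidase, was at 60.5, 49.8 and 66.9 FPKM in primary WT cells, 39.3, 87.9 and 35.8 in adapted WT lines and 22.6, 19.4 and 95.3 in adapted null lines. Here again S08 and S12 were high within their groups, and S09, S10 and S11 low. Lss, Cyp51, Sc5d, Nsdhl, Ebp and Dhcr7, which close the rings and remodel the sterol, ranged over 7.92-, 9.36-, 6.12-, 8.52-, 3.98- and 9.01-fold. Tm7sf2, a sterol reductase whose unit is shared with 3 other symbols, ranged least, 2.3-fold.

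Among the 4 regulators, Srebf2 had the highest mean (51.2 FPKM) and Srebf1 the lowest (26.4). Srebf1 was at 28.7, 31.4 and 36.1 FPKM in primary WT populations and 21.1, 13.6 and 11.7 in adapted WT lines, and at 32.1, 34.2 and 37.2 in primary null populations and 21.6, 17 and 23.7 in adapted null lines. In both genotypes every adapted line was below every primary population, and S12 was no exception. Srebf2 was at 63.7, 54.9 and 65.9 FPKM in primary WT cells, 41.5, 44.5 and 33.3 in adapted WT lines, and 26.2, 21.6 and 62.4 in adapted null lines. Insig1, the retention protein and itself a target of SREBP, was at 53.1, 35.8 and 42.8 FPKM in primary WT cells, 14.2, 27.3 and 20.6 in adapted WT lines and 8.6, 9.08 and 45.5 in adapted null lines. Scap ranged from 14.1 FPKM in S08 to 41.4 in S09, and S08 and S09, high and low for Hmgcs1, were here low and high.

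Of the transport genes, Stard4, which carries cholesterol between membranes, was at 11.9, 11.5 and 11.5 FPKM in primary WT cells, 7.26, 14.1 and 7.71 in adapted WT lines and 5.92, 0.797 and 18.2 in adapted null lines. Abca1 was at 2.06, 3.18 and 2.28 FPKM in primary WT cells, 3.27, 2.73 and 1.41 in primary null cells, 5.94, 1.94 and 6 in adapted WT lines and 10.3, 4.04 and 5.2 in adapted null lines. All 3 adapted null lines were above all 3 primary null populations, and S10, low in most synthesis genes, was the highest of the 15. Abcg1 was low throughout, between 0 in S07 and S08 and 4.89 FPKM in S10, so a pseudocount of 1 understates its differences. Mylip, a ubiquitin ligase that lowers lipoprotein receptors, lay between 1.42 FPKM in S09 and 10.3 in S13.

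Of the fatty acid synthesis genes, Acly, which makes cytosolic acetyl-CoA from citrate, had the highest mean (87.4 FPKM) and Acaca, acetyl-CoA carboxylase, the lowest (13). Acly was at 92.4, 78.3 and 118 FPKM in primary WT populations and 46.3, 52.9 and 57 in adapted WT lines, with no overlap. It was at 87.7, 92.3 and 100 in primary null populations and 65.6, 34.4 and 102 in adapted null lines, where S12 stood just above the primary populations. Fasn, the fatty acid synthase, was at 65.3, 51.7 and 72.8 FPKM in primary WT cells, 61, 51.9 and 63.4 in primary null cells, 22.4, 34.6 and 44.8 in adapted WT lines and 25.4, 17.4 and 39.4 in adapted null lines. All 6 adapted lines were below all 6 primary populations. Among the desaturases, elongases and the acyl-CoA synthetase Acsl3, Scd2 had the highest mean (134 FPKM) and Elovl6 the lowest (9.79). Scd2 was at 90.2, 120 and 157 FPKM in primary WT cells, 82.2, 174 and 67.8 in adapted WT lines and 35, 47.9 and 188 in adapted null lines. Its paralogue Scd1 was at 20.2, 26.7 and 35.1 in primary WT cells, 26, 25 and 24.8 in adapted WT lines and 21.7, 6.65 and 38.6 in adapted null lines. Elovl5 had its highest value, 48.2 FPKM, in S11. Fads1, Fads2 and Acsl3 ranged over 3.2-, 3.81- and 4.03-fold.

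**Figure D2:**
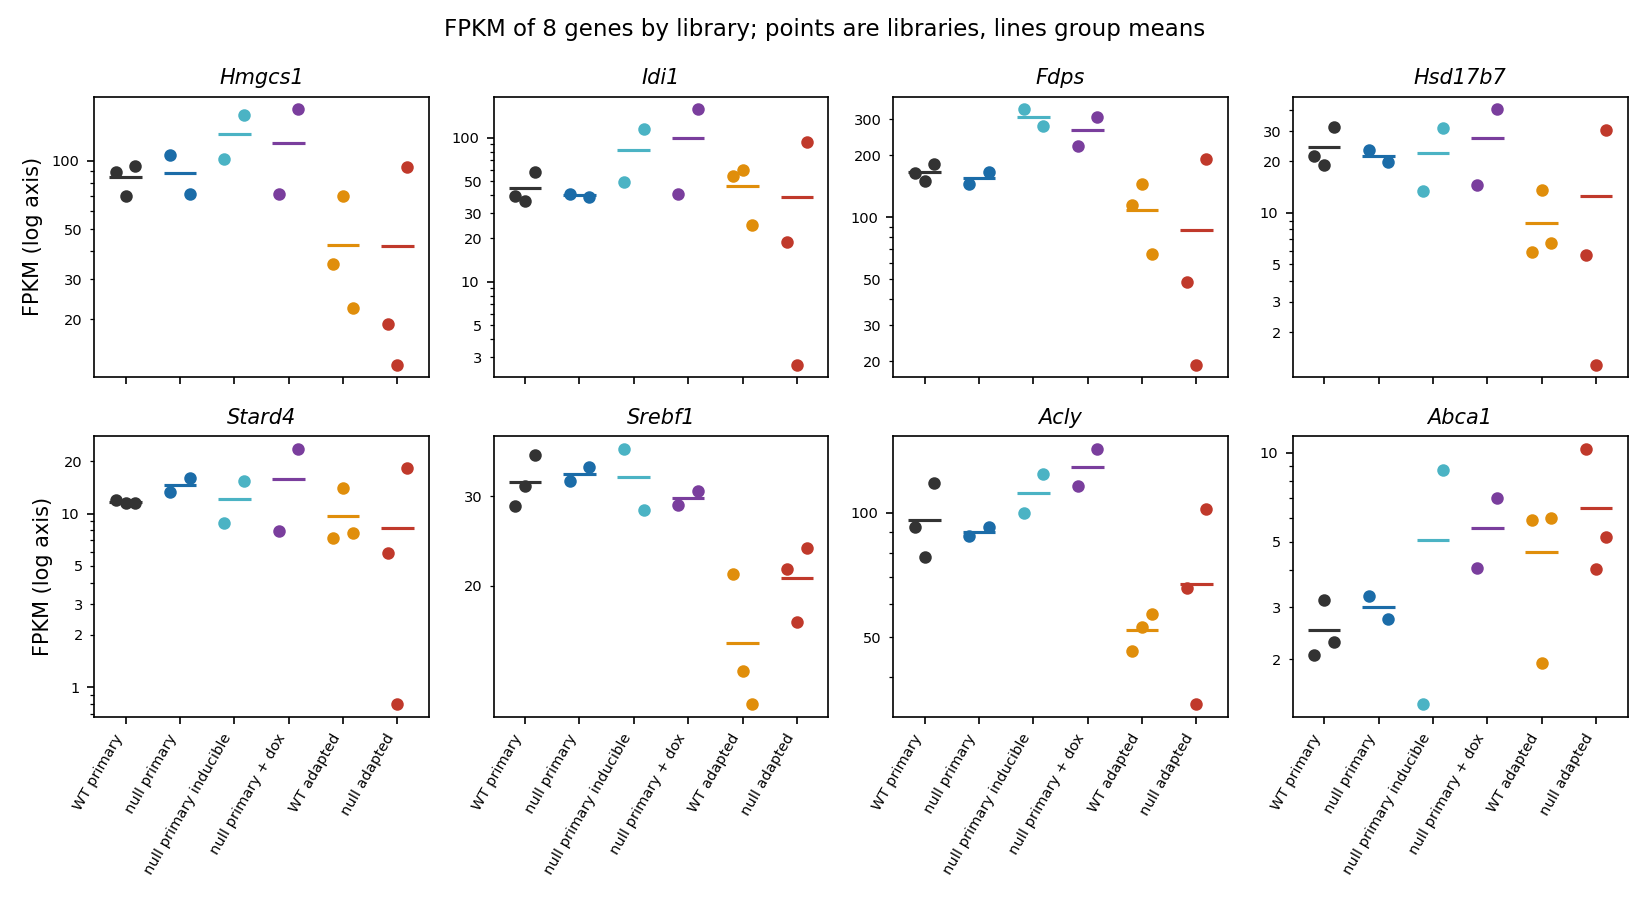
FPKM of 8 genes (log axes) in the 6 groups, each point a library and each line the mean of its group. The 3 adapted null lines are spread over 35.4-fold for Idi1 between S11 and S12, while Srebf1 is lower in every adapted line than in every primary population of its genotype.

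Culture adaptation of WT cells was compared next, between the 3 primary populations and the 3 lines derived from them. On the log2(FPKM + 1) scale 28 of 35 genes were lower in the adapted lines, with a median difference of -0.265 against -0.049 over the 19919 units tested, 53.1% of which were lower. Acly (chromosome 11, 100476353 to 100528000 in GRCm38) and Srebf1 (chromosome 11, 60104934 to 60222581) fell, and no gene of the 35 rose. By limma with Benjamini-Hochberg adjustment over all units, Acly fell by 0.857 (SE 0.2, adjusted p = 0.0473) and Srebf1 by 1.04 (SE 0.244, adjusted p = 0.0478). The choice of unit mattered: the other unit of Acly at the same place differed by -0.387 (adjusted p = 0.357), while second units of Insig1 (-1.75, adjusted p = 0.0155) and Fasn (-0.993, adjusted p = 0.0486) passed and their main units did not. Srebf1 had 1 unit. By main units, 2 of 35 genes are 5.71%, while 9.55% of all units were called, so the share was not above the background. Both lie just under the threshold, and with the embryo as a block the adjusted p was 0.0779 for Acly and 0.0789 for Srebf1, and Hsd17b7 was called in their place. The largest difference was that of Hsd17b7, -1.42 (SE 0.346, adjusted p = 0.0517), followed by Abcg1 at -1.19, Lss at -1.16, Hmgcs1 at -1.12 and Insig1 at -1.08. In 10 of 35 genes (28.6%) all adapted lines were below all primary populations, compared with 21.4% of all units, and in none of the 35 were they all above, compared with 17.3%. The regulators and the fatty acid synthesis genes were lower in 4 of 4 and 3 of 3 cases, with medians of -0.83 and -0.86, and the 17 sterol pathway genes in 14, with a median of -0.47. The 7 desaturation, elongation and activation genes had a median of -0.08. After quantile normalization 21 of 35 genes were lower, with a median of -0.118, and no gene was called. Leaving out S01, S02 or S03 also left no gene called. Without S07 only Srebf1 was called, and without S09 Acly and Fasn were. S08 was the adapted line with the highest value for 12 of the 17 sterol pathway genes (30.2% of all units). Without S08, Hmgcs1, Cyp51 and Hsd17b7 were called lower and the median was -0.573. Over all units the calls were 1808 of 19691 without S07, 2972 of 19875 without S09 and 1296 of 19858 without S08.

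In CIZ1 null cells the median difference was larger and the lines less alike. The median over the 35 genes was -0.773 against -0.038 for the 20044 units tested, and 27 genes were lower, but none of the 35 was called at an adjusted p under 0.05 by limma, whereas 4.86% of all units were. At an unadjusted p under 0.05, 6 of the 35 genes were lower and 1 higher, compared with 3359 and 2509 of the 20044 units. Fdps (-1.8, SE 0.809, adjusted p = 0.195), Pmvk (-1.79, SE 0.458, adjusted p = 0.0693), Hmgcs1 (-1.64, SE 0.702), Mvk (-1.61, SE 0.445) and Cyp51 (-1.56, SE 0.515) had the largest differences. The median SE of a gene was 0.501, against 0.264 for all units. The adapted lines were all below the primary populations for Pmvk, Mvk, Cyp51, Fasn and Srebf1, which is 14.3% of the genes compared with 19.6% of all units, and all above them for Abca1 and Mylip, which is 5.71% compared with 17.5%. Abca1 differed by 1.07 (SE 0.37, adjusted p = 0.123). The median was -0.265 without S11 and -1.3 without S12. With all 12 libraries in a single fit Fasn, Mvk, Pmvk and Cyp51 were called lower. These are 4 of 35 genes, while that fit called 2969 of 20044 units, so the share was not above the background. With S12 left out Insig1 was called lower, among 40 of 19949 units called, and with S10 left out Abcg1 was, among 2999 of 20043.

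**Figure D3:**
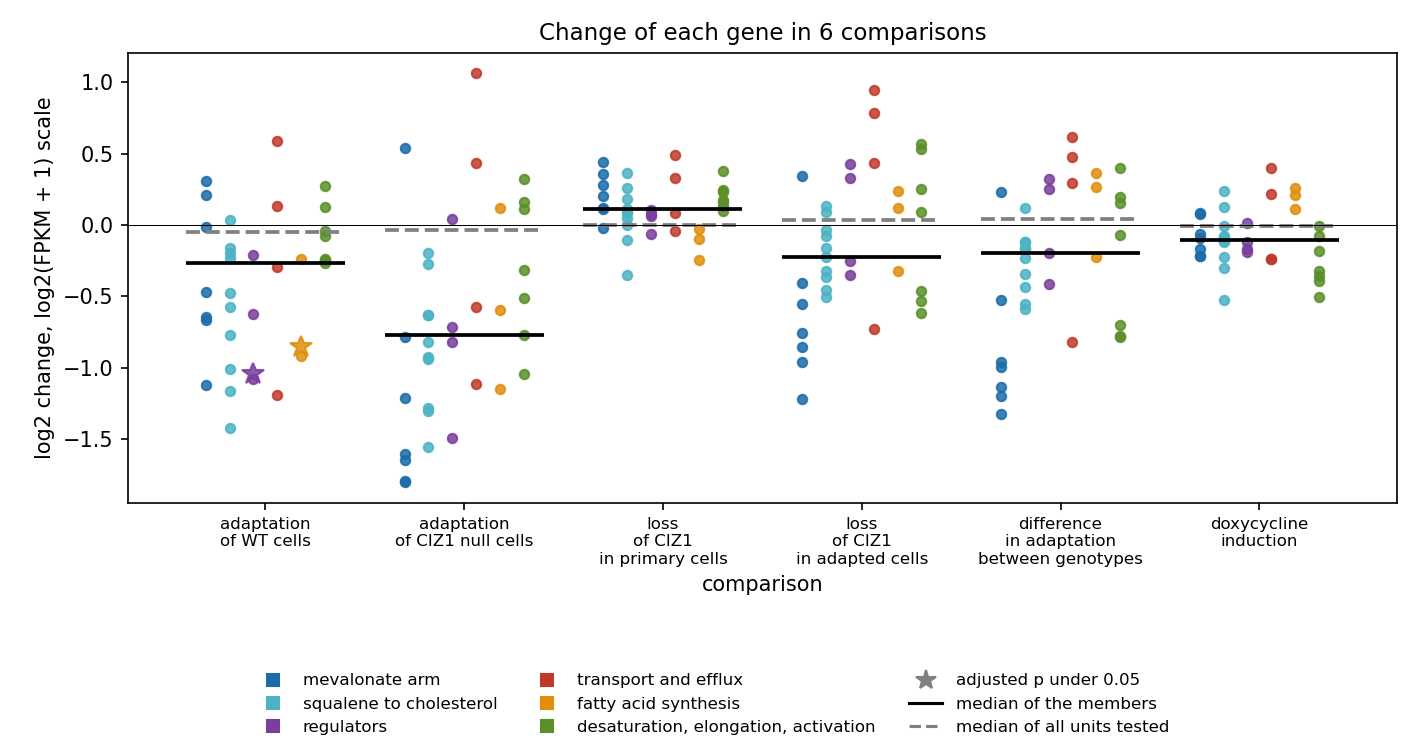
Difference of each of 35 genes on the log2(FPKM + 1) scale in 6 comparisons, coloured by role, with the median of the genes (solid line) and of all units tested (dashed line). Stars mark the only calls at an adjusted p under 0.05, Acly and Srebf1 in the adaptation of WT cells, and the median is furthest from 0 in the adaptation of CIZ1 null cells, at -0.773.

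The embryos did not behave alike. Between a primary population and the line derived from it, 23, 25 and 26 of the 35 genes were lower in the WT embryos of S07, S08 and S09, with medians of -0.397, -0.424 and -0.564. In the null embryos 31 were lower in S10 than in S05 (median -0.893) and 32 lower in S11 than in S06 (median -1.8), but only 8 lower and 27 higher in S12 than in S04 (median 0.41). Over all units the median of each pair lay between -0.06 and -0.006. For the 17 sterol pathway genes all 17 were lower in S10 and in S11, with medians of -1.02 and -2.65, and 13 were higher in S12, with a median of 0.395. Cyp51, Fasn, Hmgcs1, Insig1, Mvk and Srebf1 were lower in all 6 pairs, which is 17.1% of the genes, compared with 18.6% of all units. None of the 35 was higher in all 6 pairs, compared with 14.2% of all units. In the 3 WT pairs 15 of 35 genes were lower throughout (42.9%, compared with 29.7% of all units), and in the 3 null pairs 7 were (20%, compared with 27.9%). Those higher throughout were Elovl6 and Fdft1 in the WT pairs and Abca1 and Mylip in the null pairs, 5.71% each time, compared with 23.9% and 24.7% of all units.

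**Figure D4:**
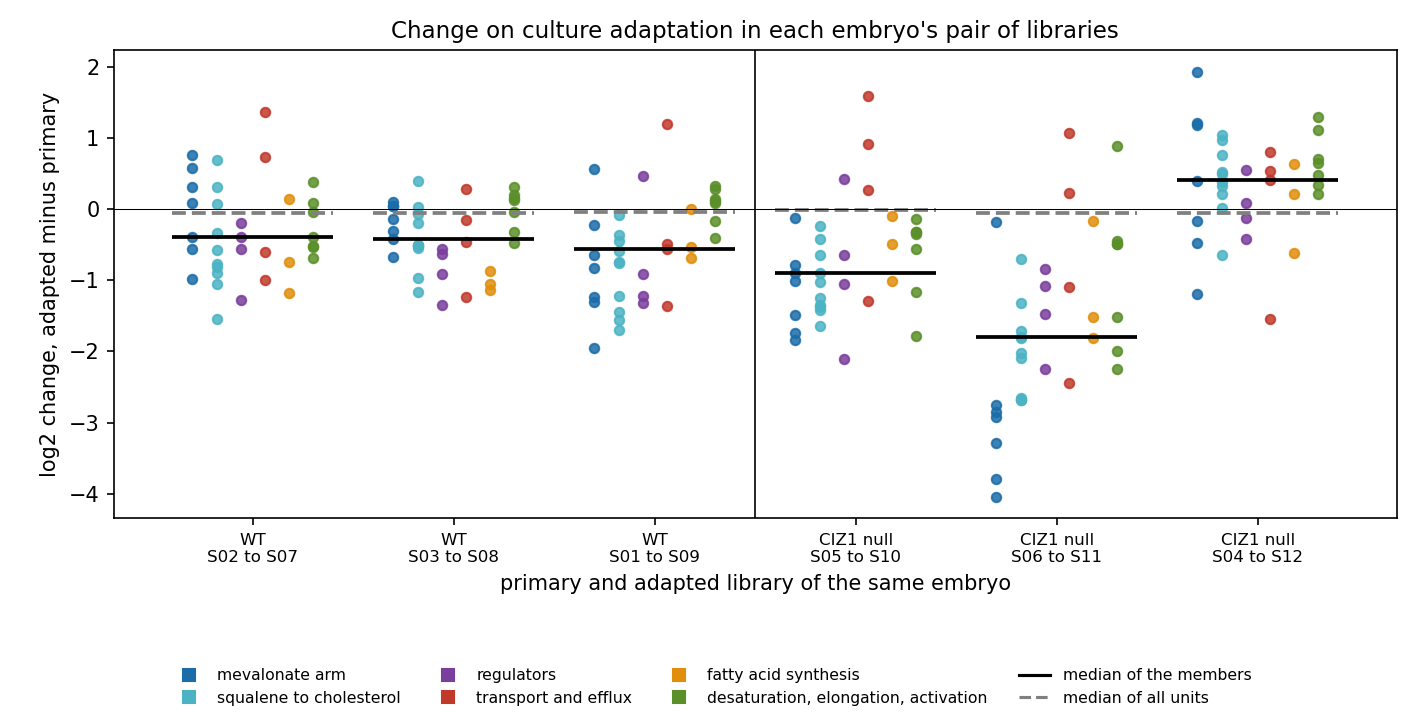
Difference between the adapted and the primary library of each embryo for 35 genes, on the log2(FPKM + 1) scale, with the median of the genes (solid line) and of all units (dashed line). The median lies below 0 in 5 of the 6 pairs, at -1.8 from S06 to S11, and above 0, at 0.41, from S04 to S12.

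The 3 adapted null lines were thus spread more widely in these genes than over all units with a mean of at least 1 FPKM. Those units were not matched to the genes in level, and the log2(FPKM + 1) scale understates differences at low FPKM. The median SD over the 3 lines was 0.973 for the 35 genes and 1.17 for the 17 sterol pathway genes, against 0.357 for all units. S12 had the highest of the 3 values in 32 of 35 genes (31.6% of all units) and S11 the lowest in 25 (35.8% of all units). In FPKM, S12 was 35.4-fold above S11 for Idi1, 23.7-fold for Hsd17b7, 22.8-fold for Stard4, 9.98-fold for Fdps and 7.48-fold for Hmgcs1. A log2 difference over 2 was seen in 13 of 35 genes (37.1%), compared with 2.85% of all units. Srebf1, Mylip, Abca1 and Abcg1 had ratios of 1.39, 1.33, 1.29 and 0.761, and Elovl5 of 0.707. These ratios compare 2 libraries and have no replicate. In the adapted WT lines the spread was smaller, with a median SD of 0.506 for the 35 genes against 0.36 for all units. S08 had the highest value in 20 of the 35 genes (30.2% of all units). In primary WT cells the median SD was 0.278 against 0.185, and S03 was the highest in 28 of 35 (28.7% of all units).

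Depth and the levels of cell cycle and fat cell genes in these libraries were as follows. Relative depth (S01 set to 1) was 0.895 in S10, 0.847 in S11 and 0.54 in S12. It was 0.62 in S07, 0.48 in S13 and 0.871 in S15. The 6 cell cycle markers summed to 644 FPKM at most in the adapted null lines and 92.7 at least. Cdk1, the mitotic kinase, was at 294, 23.1 and 49.9 FPKM in S10, S11 and S12, and Mki67 at 22.3, 0.34 and 2.02. In S01 to S06 Cdk1 was at 93.2 to 141 and Mki67 at 8.78 to 17.1. In the adapted WT lines Cdk1 was at 268 to 304 and Mki67 at 11.3 to 37.1. S11 and S12 were below all of S01 to S06 for both genes, although the study describes its adapted lines as rapidly proliferating. Pcna, a replication clamp, was at 188, 56.5 and 89.5 FPKM in S10, S11 and S12, against 72.5 to 99.6 in S01 to S06. In the adapted WT lines it was at 128 to 204. Fabp4, a fatty acid binding protein of fat cells and others, was at 57.2 FPKM in S12 and 42.5 in S09, against 1.91 to 15.7 in the other 13 libraries, and Pparg was at 6.081 in S12 and 6.695 in S14, while Adipoq, Plin1, Cidec and Lep were at 0 in S12. The part of depth, the cell cycle and these fat cell genes in the result was not tested.

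Loss of CIZ1 was compared in primary cells, where populations of a genotype differed less in these genes than adapted lines did. The median SD of the 35 genes was 0.278 in WT and 0.232 in null populations, against 0.185 and 0.216 for all units. No gene of the 35 was called by limma, and 0.00511% of the 19566 units tested were. At an unadjusted p under 0.05 only Mylip was higher and none was lower, compared with 690 units higher and 535 lower. The median difference was 0.11 and the median SE 0.198, and 26 of 35 genes were higher in null cells. Mylip had the largest difference, 0.489 (SE 0.19, adjusted p = 0.776), and Hsd17b7 the lowest, -0.349 (SE 0.258, adjusted p = 0.822). None of the 35 separated the genotypes completely, compared with 6.13% of all units higher and 5.72% lower in null cells. The library S06 had the highest null value in 23 of 35 genes (35.9% of all units): with S04 and S05 alone the median was 0.022, and with S13 added it was 0.285.

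In adapted lines the difference between genotypes was bounded by the spread between lines. None of the 35 was called by limma, 0.00501% of 19976 units were, and at an unadjusted p under 0.05 there was none either. The median was -0.227 with a median SE of 0.545, from Idi1 at -1.22 (SE 1.12) to Abcg1 at 0.945 (SE 0.626). Pmvk was lower in every null line than in every WT line (-0.961, SE 0.436, adjusted p = 0.998) and Elovl5 higher (0.57, SE 0.254, adjusted p = 0.998), each 2.86% of the genes, compared with 3.74% of all units lower and 4.55% higher. The sign of the median depended on the lines included: it was 0.192 without S11, 0.018 without S08, -0.021 without S10 and -0.738 without S12, and -0.255 and -0.293 without S07 and S09. Comparisons of genotype share their libraries with the comparisons of adaptation above.

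The change on adaptation was tested for a difference between genotypes as an interaction over the 12 libraries. None of the 35 genes and 0% of the 20046 units tested passed. At an unadjusted p under 0.05 Pmvk was the only gene of the 35, compared with 497 units lower and 431 higher. Its interaction was -1.32 (SE 0.552, adjusted p = 0.996). The median interaction was -0.193 with a median SE of 0.641. It was 0.078 without S11, -0.034 without S10, -0.071 without S08 and -0.736 without S12. The larger average difference in null cells was therefore not shown to differ from that in WT cells.

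Re-expression of CIZ1 was compared between S06 and S13, untreated, and S14 and S15, given doxycycline. None of the 35 genes was called, with 0.0101% of 19768 units called, and none had an unadjusted p under 0.05. The median was -0.104 with a median SE of 0.397, from Dhcr7 at -0.526 (SE 0.432) to Abca1 at 0.402 (SE 0.687). Within the treated pair S15 was above S14 in 33 of 35 genes (50.3% of all units), with 158 against 40.7 FPKM for Idi1, 169 against 71.3 for Hmgcs1 and 175 against 81.8 for Msmo1. Within the untreated pair S13 was above S06 in 26 of 35 (51.4% of all units), with 115 against 49.6 FPKM for Idi1. The median difference was 0.244 without S14, -0.507 without S15, 0.105 without S13 and -0.321 without S06, so its sign followed the library left out. The summed fibroblast markers were at 6205 and 7917 FPKM in the treated libraries, below the untreated pair, and their part in the result was not tested. By the study's account treated and untreated cells came from the same embryos, so these libraries are not independent populations. The fit took them as independent and did not use which libraries shared an embryo. Differences between embryos therefore enter the SE and the values with a library left out. Doxycycline cannot be told apart from CIZ1, since no library without the transgene was treated.

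A further 52 genes of lipid metabolism gave context, of which 48 to 49 were tested in the comparisons of adaptation. In WT cells Slc25a1, the mitochondrial citrate carrier that supplies ACLY, and Pnpla2, a triglyceride lipase, fell, and none rose. These were 2 of 48 genes, while 9.55% of all units were called, so the share was not above the background. Slc25a1 was at 86.1, 102 and 108 FPKM in primary WT populations and 43.1, 34.4 and 36.4 in adapted lines. It fell by 1.36 (SE 0.172, adjusted p = 0.0138 by limma), and with the embryo as a block its adjusted p was 0.0484. Pnpla2, at 15.9, 13 and 13.2 FPKM and then 7.96, 8.61 and 7.19, fell by 0.75 (SE 0.167, adjusted p = 0.0429, or 0.0985 with the block). In null cells Aacs, which activates acetoacetate for lipid synthesis in the cytosol, was the single call. That is 1 of 49 genes, again not above the share of all units, 4.86%. Aacs was at 54.1, 46.2 and 54.2 FPKM in S04 to S06 and 14.7, 15.3 and 17.1 in S10 to S12, and fell by 1.65 (SE 0.167, adjusted p = 0.0194, or 0.0708 with the block). S12 was here close to the other 2 lines. In WT cells Aacs was at 47, 40.4 and 63 FPKM in primary populations and 14.6, 30.6 and 17.3 in adapted lines, a difference of -1.27 (SE 0.313, adjusted p = 0.0531). The medians of these neighbouring genes, 0.047 in WT and 0.159 in null cells, were above those of all units. None was called in the comparisons of genotype, the interaction or induction, where 47 to 49 were tested. At an unadjusted p under 0.05 the counts were 2 (lower), 0, 1 (higher) and 1 (lower). Over all units the counts, higher and lower, were 690 and 535 of 19566 in primary cells and 365 and 439 of 19976 in adapted lines. They were 431 and 497 of 20046 for the interaction and 144 and 203 of 19768 for induction.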

How the data were processed

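Per the study's methods and the labels' processing notes, the authors trimmed paired-end poly(A) reads with Cutadapt 1.8.3, aligned them to GRCm38 with HISAT2 2.0.5, and assembled and quantified transcripts with the Cufflinks tools 2.2.1. The deposited table holds Cuffnorm FPKM for 65522 transcription units in 15 libraries. A second deposited table holds only the authors' own comparisons (group means, fold changes, p and q values) and was not used. The library kit is not stated to keep strand, so overlapping genes cannot be told apart.

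Differences were tested on log2(FPKM + 1), two-sided, over units with a mean of at least 1 FPKM in the libraries compared, with Benjamini-Hochberg adjustment over all units and a threshold of 0.05, using limma 3.58.1 (lmFit and eBayes with trend, R 4.3.3). A difference on this scale understates that of genes with low FPKM. The fit was run on simulated data with independent noise and planted changes larger than any found for the members in these comparisons. How well smaller changes are recovered was not tested. Members were described by role, with those called and the highest and lowest of each role in full, other members singled out after their values were seen, and neighbouring genes named where called. The members and lists were chosen with earlier results of these data known.

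Embryos were read from values identical to the paper's per-line tables. After subtracting group means, the libraries of an embryo correlated across units with r = 0.146, -0.00539 and 0.211 (S02 and S07, S03 and S08, S01 and S09) and 0.106, 0.0881 and -0.019 (S05 and S10, S06 and S11, S04 and S12). The source name of S06 reads S13; its title was used. Alternatives were a pseudocount of 0.1, no filter, a mean of at least 5 FPKM, quantile normalization, the embryo as a block, larger fits, other primary null sets, each library left out, and, chosen after seeing the data, the sum of the units of a gene. Python 3.11.15, NumPy, pandas and Matplotlib were used for tables and figures.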

Additional observations from a re-analysis of the deposited data

How the results depend on the processing

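With a pseudocount of 0.1, the number of the 35 genes called in the adaptation of WT cells was 1, against 2 as reported. It was 0 with no filter on FPKM, 0 after quantile normalization, 1 with the embryo as a replicate block and 1 with 12 libraries in 1 fit. With a mean of at least 5 FPKM it was 4 of 32 genes tested (Acly, Insig1, Srebf1 and Hsd17b7), while 1580 of 11737 units were called. Leaving out 1 library each gave 0 to 3. In the adaptation of CIZ1 null cells 4 were called in the fit of 12 libraries and 0 to 1 with 1 library left out. In the other comparisons no gene of the 35 was called under any alternative run. Over all units, the adaptation of WT cells gave 988 calls with no filter, 499 with the block and 62 to 2972 with 1 library left out, against 1902. That of null cells gave 322 with no filter, 10 with the block, 2969 in the fit of 12, 30 with S04 and S05 as the primary cells, 449 with S13 added and 25 to 2999 with 1 library left out, against 975. Loss in primary cells gave 3 with a pseudocount of 0.1, 3 with S04 and S05, 2 with S13 added and 1 to 5 with 1 left out, against 1. Loss in adapted cells gave 0 with a pseudocount of 0.1, with no filter, with the stricter filter and after quantile normalization, 10 in the fit of 12 and 0 to 4 with 1 left out, against 1. The interaction gave 2 with a pseudocount of 0.1 and 0 to 234 with 1 left out, against 0, and induction 0 with no filter and 0 to 6 with 1 left out, against 2. The cause of these shifts was not tested. Summing the units of a gene, an alternative chosen after seeing the data, left 2 calls in WT cells, Insig1 and Srebf1. None of Acly, Srebf1, Slc25a1, Pnpla2 and Aacs changed direction under the alternatives run, but their calls were often lost. With 1 library left out the call was lost in 23 of 30 fits. Of the 5 calls, 3 were lost with no filter, 3 after quantile normalization and 4 with the embryo as a block. All 5 were kept with a mean of at least 5 FPKM. The call of Aacs was lost with S04 and S05 as the primary cells. Where a library was left out of a pair, the lone sample was assumed to vary like the others.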
